A study of Homo sapiens with 34 samples.

Results

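The genes of antigen presentation examined here were HLA-B, HLA-C, HLA-E, B2M, NLRC5, TAP1, PSMB8, PSMB9 and CIITA. They were chosen by name as the heavy and light chains of MHC class I, parts of the peptide supply, and the master coactivators of class I and class II. These were 9 of 19962 protein-coding genes with a GENCODE model on the main hg38 chromosomes. For each gene, the peaks within 1 kb of every annotated start site and across the gene body were read in each of 30 peak lists, together with the peaks on the alternate sequences that the genome build carries for the same loci.

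The lists came from chromatin immunoprecipitation sequencing of KELLY cells, a human neuroblastoma line with amplified MYCN. All cells, in both groups, carried a hairpin construct that doxycycline switches on and that targets RUNX1T1, a transcriptional co-repressor. Cells were given DMSO or doxycycline and fixed after 72 h, and 5 histone marks were profiled with 3 libraries per mark and treatment. The comparison asks how the chromatin of these genes differs once the hairpin is induced. The whole design rests on a single cell line and a single hairpin, and with no doxycycline-treated line lacking that hairpin among the groups, an action of the drug itself and of the knockdown cannot be told apart.

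MHC class I molecules display peptides from inside the cell to cytotoxic T cells. Each is a heavy chain, encoded by HLA-B, HLA-C or the less variable HLA-E, bound to the light chain beta-2 microglobulin, the product of B2M. The immunoproteasome subunits encoded by PSMB8 and PSMB9 cut proteins into suitable peptides, and TAP1 is part of the transporter that carries them into the endoplasmic reticulum. NLRC5 is the coactivator of class I genes and CIITA that of class II genes; neither binds DNA itself, and both dock on a shared promoter module bound by RFX, CREB family and NF-Y factors. Neuroblastoma is known for low surface class I. H3K4me3 and H3K27ac mark active promoters, H3K4me1 and H3K4me2 mark promoters and enhancers to differing degrees, and H3K27me3 is laid down by Polycomb repressive complex 2 over silent genes.

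RefSeq promoters of GRCh38.p14 matched 6 of the 9 members at the canonical start site, and HLA-E, NLRC5 and CIITA were not matched. The 250 bases before the start site, read 5′ to 3′ on the gene's strand, are shown for the genes with a pair of TGACG and ATTGG or with interferon element letters, as described after the sequences. They lie at chr6:31357180-31357429 (minus strand) for HLA-B, chr6:31272093-31272342 (minus strand) for HLA-C, chr15:44711267-44711516 (plus strand) for B2M and chr6:32853705-32853954 (minus strand) for TAP1. Capitals mark TGACG, the core of CREB family sites, CCAAT or its complement ATTGG, the core of NF-Y sites, and GAAA, any 2 bases and GAAA, or the complement of this, a core of interferon-stimulated response elements.
HLA-B: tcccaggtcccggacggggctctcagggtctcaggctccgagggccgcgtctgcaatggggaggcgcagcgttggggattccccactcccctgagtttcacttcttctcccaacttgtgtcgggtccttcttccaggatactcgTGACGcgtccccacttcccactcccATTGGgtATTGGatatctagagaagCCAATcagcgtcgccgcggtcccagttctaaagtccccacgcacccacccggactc
HLA-C: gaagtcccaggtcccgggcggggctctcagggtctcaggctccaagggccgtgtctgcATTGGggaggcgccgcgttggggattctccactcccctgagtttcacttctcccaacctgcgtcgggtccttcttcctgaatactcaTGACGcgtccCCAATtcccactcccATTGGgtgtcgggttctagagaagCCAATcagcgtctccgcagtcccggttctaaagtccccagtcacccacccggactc
B2M: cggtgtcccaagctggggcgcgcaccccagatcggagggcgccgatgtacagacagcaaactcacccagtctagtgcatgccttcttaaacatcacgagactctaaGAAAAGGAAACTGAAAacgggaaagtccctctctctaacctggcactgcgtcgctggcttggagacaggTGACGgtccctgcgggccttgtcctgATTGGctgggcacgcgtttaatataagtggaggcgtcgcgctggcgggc
TAP1: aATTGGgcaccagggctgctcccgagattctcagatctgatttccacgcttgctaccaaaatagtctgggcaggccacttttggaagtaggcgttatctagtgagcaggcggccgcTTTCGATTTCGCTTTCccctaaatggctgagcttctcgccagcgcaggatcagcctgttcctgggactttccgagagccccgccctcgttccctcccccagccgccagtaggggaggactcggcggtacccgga

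In HLA-B and HLA-C, TGACG was followed by ATTGG at a distance of 25 bases, and in B2M at 26 bases. A pair of these letters 24 to 27 bases apart, in either orientation, was found in 0.206% of 34961 promoters of the same length; this distance was chosen after the 3 sequences had been seen. The interferon element letters occurred in B2M and TAP1, in each case as 2 overlapping matches, and in 3.02% of all promoters. On either strand, TGACG alone was in 21.2% of promoters and CCAAT in 32% of them. GGG, any 2 bases and TTCCC, a core of NF-kappa B sites, was in HLA-B and in 1.97% of all promoters. A match of letters describes the sequence and does not show that a factor was bound.

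The libraries held 57.1 to 85.2 M reads after duplicate filtering, and each was called against an input of the same treatment. The smaller of the 2 read counts, to which peak calling scales, was 71.9 to 81.1 M for DMSO and 57.0 to 63.4 M for doxycycline. Treatment and calling depth therefore cannot be told apart. The H3K27me3 libraries fell into 2 kinds by the fragment length estimated in their headers, 256 to 280 bp in DMSO replicate 1 and doxycycline replicates 1 and 2, and 105 to 112 bp in the remaining 3. Sympathetic neuroblastoma genes matched the label, since 6 of 6 (PHOX2A, HAND2, GATA3, ISL1, DBH and TH) had H3K4me3 and H3K27ac peaks at their start sites in all 6 libraries, whereas 0 of 6 immune cell genes did for H3K4me3 and 1 of 6 (SPI1) for H3K27ac. The hairpin acts on RUNX1T1 mRNA, so the marks do not check the knockdown, and H3K4me3 covered the RUNX1T1 start sites in all 6 libraries.

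On the primary chromosomes, few members had peaks of the active promoter marks at their canonical start sites. Of the 9 members, 6 lie in the MHC, where sequence is shared with alternate copies in the build. B2M and NLRC5 carried H3K4me2, H3K4me3 and H3K27ac at their canonical start sites in at least 5 of 6 libraries, and HLA-C carried H3K4me3 alone in all 6. A peak within 1 kb of any annotated start site was present in all 6 libraries for 2 of 9 members in H3K4me1 (61.4% of all genes), 3 in H3K4me2 (71.8% of all genes), 4 in H3K4me3 (71.9% of all genes) and 3 in H3K27ac (64.2% of all genes). For H3K27me3 the count was 1, CIITA, against 20.1% of all genes. At the canonical start site alone, the counts were 1, 2, 3, 1 and 1 in the same order of marks, against 50%, 68.5%, 68.9%, 60.5% and 16.8% of all genes. The difference lay with NLRC5 and CIITA, both of which have further annotated start sites far inside the gene.

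**Figure D1:**
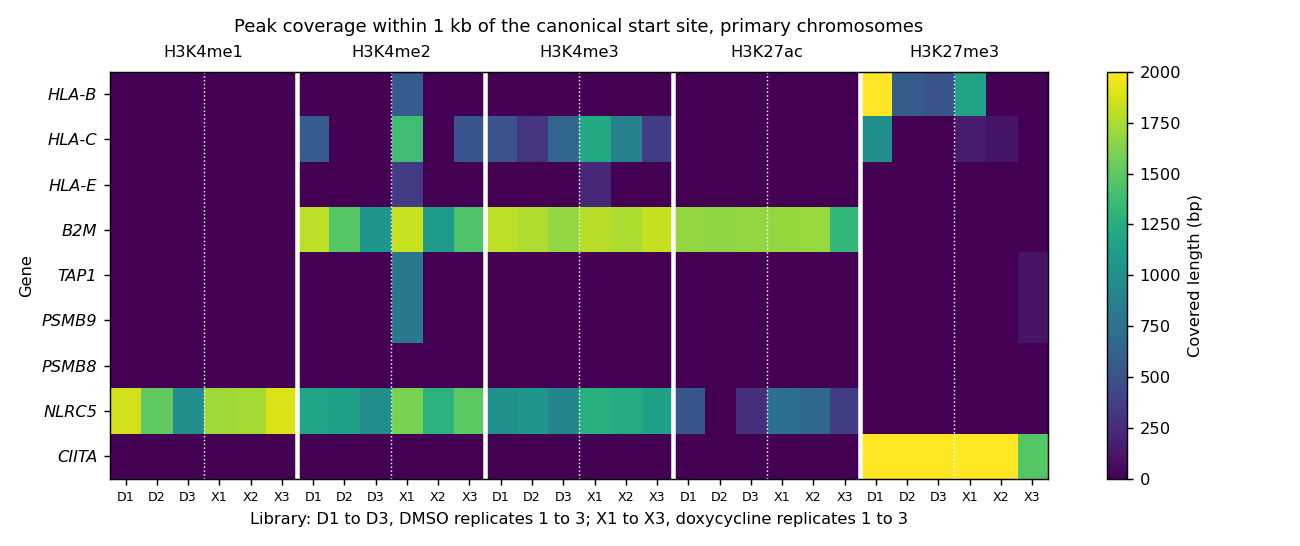
Length covered by peaks within 1 kb of the canonical start site (bp, color scale from 0 to 2001) for the 9 genes (rows) in each of the 30 libraries (columns, grouped by mark, DMSO before doxycycline). B2M and NLRC5 carried H3K4me2 and H3K4me3 in all 6 libraries, CIITA carried H3K27me3 in all 6, and PSMB8 had no peak of any mark.

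Between treatments, 0 of 9 members had a covered promoter length, over all start sites, that separated the 3 DMSO from the 3 doxycycline libraries in any mark. Members with no peak in any library could not separate and were not among the tested genes. They numbered 6 for H3K4me1, 1 for H3K4me2, 4 for H3K4me3, 6 for H3K27ac and 4 for H3K27me3. The shares of all tested genes that separated, higher or lower in doxycycline, were 3.97% and 5.89% for H3K4me1, 1.77% and 0.549% for H3K4me2, 2.94% and 6.16% for H3K4me3, 4.92% and 6.47% for H3K27ac, and 2.16% and 0.0282% for H3K27me3. The exact two-sided permutation test over the 20 assignments of 3 of 6 libraries cannot go below p = 0.1, so no gene reached an unadjusted p under 0.05 and no adjusted p was below 0.05. The labels do not say that replicates came from separate cultures, and these p-values then measure only the spread between libraries.

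B2M, the light chain shared by all class I molecules, had the promoter of an active gene in both treatments. H3K4me3 covered 1798, 1761 and 1677 bp of the 2001 bp window around its start site in the 3 DMSO libraries and 1789, 1758 and 1823 bp in the doxycycline libraries. The groups overlapped (1745 ± 62.0 against 1790 ± 32.5 bp, mean ± SD, n = 3 each; exact permutation p = 0.5). H3K27ac covered 1673, 1672 and 1677 bp under DMSO and 1684, 1696 and 1322 bp under doxycycline, with the lowest value in doxycycline replicate 3. H3K4me2 ranged from 1054 to 1831 bp over the 6 libraries with both treatments spanning most of that range. Its H3K4me3 peak ranked between the 58.2 and 66.9 percentile of its own list by -log10 q, the significance MACS2 assigns to a peak, and the H3K27ac peak between the 75.8 and 86.8 percentile. No H3K27me3 peak touched B2M in any library, and H3K4me1 reached a start-site window in 1 library, by 24 bp.

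The build holds a copy of the B2M locus on an alternate sequence of chromosome 15, KI270849v1, and the same peaks were called there. The 2 windows are 99.9% identical. H3K4me3 covered 1780, 1757 and 1714 bp of the copy under DMSO and 1779, 1784 and 1759 bp under doxycycline, close to the primary chromosome. Of all stretches 1 read long in the primary window, 89.4% also occur letter for letter on an alternate sequence.

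HLA-B showed no H3K4me3 on chromosome 6 in any library, but did so in all 6 on 1 alternate sequence. Its canonical start site, at position 31357179 of chromosome 6, could be aligned to 5 alternate sequences of the MHC with 94.9% to 98.7% identity, the highest being GL000251v2. On GL000251v2, H3K4me3 covered 708, 489 and 744 bp under DMSO and 1097, 883 and 895 bp under doxycycline. Every doxycycline library was above every DMSO library (958 ± 120 against 647 ± 138 bp, n = 3 each; exact permutation p = 0.1, the smallest this design allows). On chromosome 6 and on the other 4 copies, H3K4me3 was called in 0 of 6 libraries each. H3K4me2 was called on GL000251v2 in all 6 libraries as well, with 1003, 315 and 327 bp under DMSO and 1207, 661 and 1047 bp under doxycycline, which overlapped.

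The same HLA-B window also carried strong H3K27me3. On GL000251v2 it covered 2001, 1221 and 1149 bp under DMSO and 2001, 2001 and 1085 bp under doxycycline, and the strongest peak stood at the 96.1 to 98.6 percentile of its list in all 6 libraries. H3K4me3 at this copy ranked low, between the 12.9 and 32.0 percentile. The HLA-B copy thus had both marks called in every library, and no H3K27ac peak was called at any of its 6 sequences.

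On chromosome 6 itself, HLA-B had H3K27me3 peaks at its start sites in 4 of 6 libraries, covering 2899, 590 and 520 bp under DMSO and 1170, 0 and 0 bp under doxycycline. Doxycycline values were below DMSO values both among the libraries of long and among those of short fragment length, which held for 2.68% of tested genes. The chromosome 6 values at all start sites overlapped between treatments (exact permutation p = 0.5). On GL000254v2, H3K27me3 covered 2001, 514 and 108 bp under DMSO and 804, 0 and 0 bp under doxycycline, and on GL000255v2 it covered 1523, 581 and 0 bp against 1458, 0 and 0 bp. On GL000251v2, the mean was higher under doxycycline and the values overlapped (1457 ± 472 bp under DMSO against 1696 ± 529 bp, n = 3 each; exact permutation p = 1). Within a kind of fragment length the doxycycline values there were not higher. The libraries of long fragment length each had 2001 bp, and those of short had 1221 and 1149 bp under DMSO and 1085 bp under doxycycline.

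HLA-C, the neighboring heavy chain gene, had H3K4me3 in all 6 libraries on chromosome 6 and again on GL000251v2. On chromosome 6 the peaks covered 528, 303 and 651 bp under DMSO and 1226, 873 and 372 bp under doxycycline. These overlapped because doxycycline replicate 3 fell among the DMSO values, and without that library the groups no longer overlapped. On GL000251v2, where the window is 99.7% identical, H3K4me3 covered 980, 889 and 981 bp under DMSO and 1139, 1029 and 1098 bp under doxycycline. There the groups did not overlap (1089 ± 55.6 against 950 ± 52.8 bp, n = 3 each; exact permutation p = 0.1). H3K27me3 covered the same copy in 5 of 6 libraries, with 1954, 783 and 888 bp under DMSO and 1370, 509 and 0 bp under doxycycline. H3K27ac was called at none of the 7 sequences of HLA-C.

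Among the 91 genes with an H3K4me3 peak at their GL000251v2 start site in at least 1 library, HLA-B and HLA-C were the 2 that were higher in all doxycycline libraries (2.2%), and 1 gene (1.1%) was lower. The 2.2% is thus made up of these 2 genes alone. Over the main chromosomes, 2.82% of genes tested at their canonical start site were higher and 5.69% lower. HLA-B and HLA-C are close relatives in sequence, so reads from either, or from a chromosome carrying another allele, can be placed at the wrong copy, which was not tested.

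**Figure D2:**
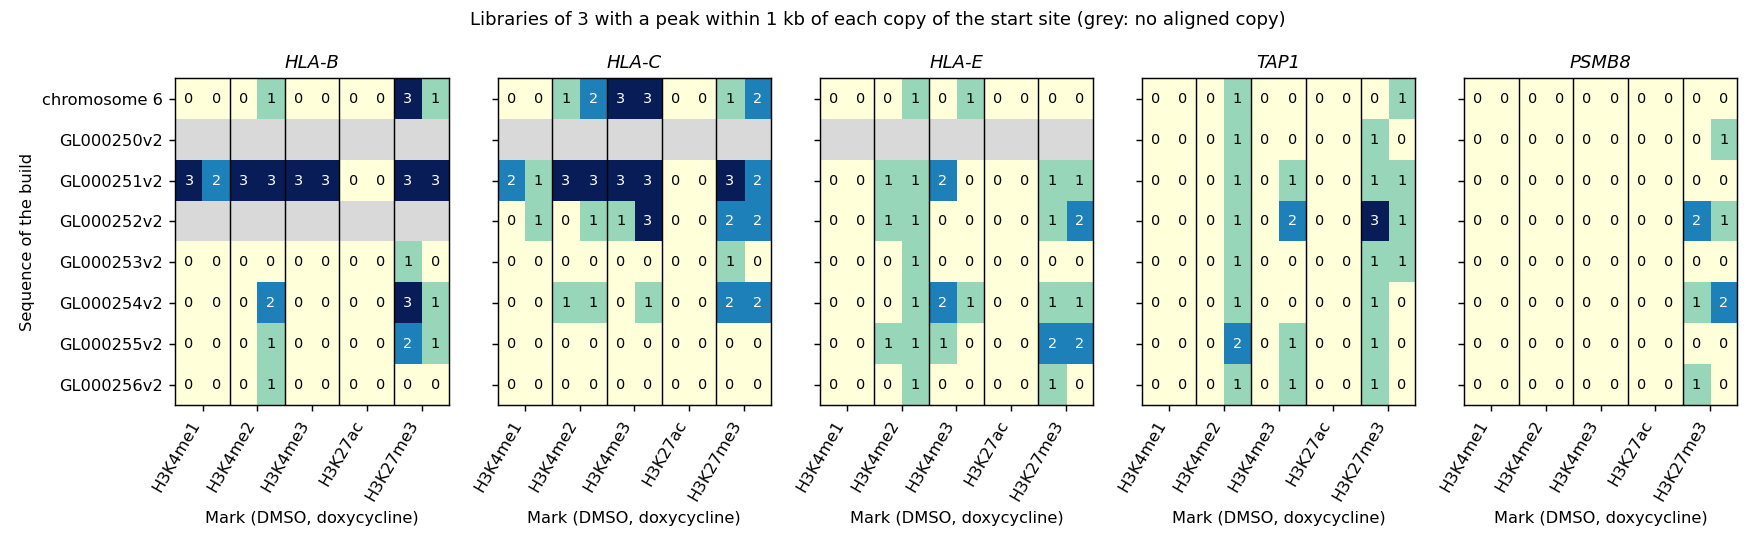
Number of libraries, of 3 per treatment, with a peak within 1 kb of each copy of the start site on chromosome 6 (top row) and on 7 alternate MHC sequences, for 5 genes and 5 marks with DMSO left and doxycycline right. H3K4me3 at HLA-B was called in 3 and 3 libraries on GL000251v2 and in 0 on every other copy.

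HLA-E, a ligand of natural killer cell receptors, had peaks in some libraries only. On chromosome 6, doxycycline replicate 1 held an H3K4me2 peak of 345 bp and an H3K4me3 peak of 231 bp at its start, and the other 5 libraries of each mark held none. Counting all 7 sequences, H3K4me3 appeared in DMSO replicates 1 and 3 and doxycycline replicate 1, and H3K4me2 in replicate 1 of each treatment. H3K27me3 was called on 5 of the 7 sequences in DMSO replicate 1, on 4 in doxycycline replicate 1, on 2 in doxycycline replicate 3 and on 1 in DMSO replicate 3, and on none in replicate 2 of either treatment. Its window was shared in full, 100% of read-length stretches occurring elsewhere in the build, with copies 99.9% to 100% identical.

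TAP1 and PSMB9 start 488 bp apart on opposite strands and share their promoter peaks. Under DMSO, 0 of 3 libraries had H3K4me2 or H3K4me3 at any of the 8 sequences of this promoter. Doxycycline replicate 1 had H3K4me2 at all 8, covering 590 to 1103 bp, and H3K4me3 at 4 of them, doxycycline replicate 3 had each mark at 1, and doxycycline replicate 2 had none. The H3K4me2 libraries of doxycycline replicates 1 and 3 also had more peaks across the whole MHC than that of doxycycline replicate 2. A canonical start site with H3K4me2 was found for 53.4% of the 204 genes in the interval in doxycycline replicate 1, 43.1% in DMSO replicate 1 and 30.9% in doxycycline replicate 3, against 14.2% to 16.2% in the other 3 libraries. For H3K4me3 these shares were alike, at 50.5%, 49.0% and 49.0% under DMSO and 52.5%, 49.5% and 48.0% under doxycycline. The part of the library-wide H3K4me2 difference in the TAP1 and PSMB9 peaks was not tested.

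H3K27me3 at this promoter was found at 7 of 8 sequences in DMSO replicate 1 and 3 of 8 in doxycycline replicate 1, and at 0 or 1 in each of the other 4. PSMB8, which lies next to TAP1, had no H3K4me1, H3K4me2, H3K4me3 or H3K27ac peak at its canonical start site in any library or on any of its 8 sequences. H3K27me3 was called at 3 of those sequences in DMSO replicate 1 and doxycycline replicate 1, at 1 in replicate 3 of each treatment and at none in replicate 2.

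NLRC5, the coactivator of class I genes, was the single member with a covered length at its canonical start site that did not overlap between treatments, in H3K4me2 and H3K4me3. H3K4me3 covered 1014, 1050 and 910 bp within 1 kb of the canonical start site under DMSO and 1271, 1231 and 1148 bp under doxycycline. The groups did not overlap (1217 ± 62.7 against 991 ± 72.7 bp, n = 3 each; exact permutation p = 0.1, adjusted over all genes p = 1), as for 2.82% of genes tested at their canonical start site. H3K4me2 covered 1182, 1138 and 990 bp under DMSO and 1602, 1280 and 1493 bp under doxycycline, again without overlap (1458 ± 164 against 1103 ± 100.6 bp; 1.84% of genes). The fold enrichment of the H3K4me3 peak was 39.5, 27.7 and 26.9 under DMSO and 26.95, 29.4 and 15.8 under doxycycline, and its percentile in the list, 63.4 to 70.2 against 65.8 to 68.8, overlapped. The percentile of the H3K4me2 peak overlapped as well, at 95.9, 88.7 and 99.0 under DMSO and 93.2, 94.4 and 70.5 under doxycycline.

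Counting all 28 annotated start sites of NLRC5, which fall in 11 separate windows, the non-overlap was lost for both marks. Same-numbered libraries deviated together for the 3 H3K4 marks, so paired differences were also taken. The pairing was weakest for H3K4me2, where 2 of 3 numbers correlated best with their own and the highest correlation between different numbers, 0.42, was above the lowest within a number, 0.18. With this replicate block, the differences over all start sites were above 0 in 3 of 3 pairs for H3K4me2 (1242, 216 and 1264 bp; 16.3% of genes) and for H3K4me3 (220, 181 and 238 bp; 11.8% of genes). The exact sign-flip p of 0.25 is the smallest that 3 pairs allow.

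H3K27ac at the NLRC5 start was weak, with 538, 0 and 269 bp under DMSO and 733, 670 and 374 bp under doxycycline, which overlapped. H3K4me1 covered 1861, 1510 and 979 bp under DMSO and 1719, 1729 and 1899 bp under doxycycline. No H3K27me3 reached the start site, and a weak peak some 5 to 7 kb downstream of it was called in 5 of 6 libraries.

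The highest-ranked H3K4me1 peaks of any member lay far inside NLRC5. The interval common to the strongest H3K4me1 peak of all 6 libraries was chr16:57060115-57063030, 70558 bp downstream of the canonical start site, spanning exons 31 and 32 of 49 with the introns around them. It was covered in full by H3K4me1 and by H3K27ac in all 6 libraries, and in part by H3K4me2 in all 6 and H3K4me3 in 4. In the H3K4me1 lists this peak stood at the 99.2, 99.1 and 99.5 percentile under DMSO and at the 98.1, 98.2 and 97.9 percentile under doxycycline. Every doxycycline percentile was lower, as for 7.96% of genes by the percentile of their top promoter peak. The lists differed in length, with 150000, 103711 and 139249 H3K4me1 peaks under DMSO and 129625, 89391 and 109459 under doxycycline, and the part of list length and depth in these ranks was not tested. The H3K27ac percentile was also lower in each doxycycline library, at 84.0, 81.9 and 86.4 against 88.2, 89.2 and 87.9 (12.8% of genes), in lists of 56511 to 73457 peaks under DMSO and 49542 to 62012 under doxycycline. Fold enrichment at the same place overlapped between treatments for both marks, 3.39 to 4.80 against 3.35 to 4.64 for H3K4me1 and 4.61 to 7.00 against 5.45 to 6.75 for H3K27ac. A read-length stretch of the NLRC5 start-site window was found on an alternate sequence in 0% of cases.

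**Figure D3:**
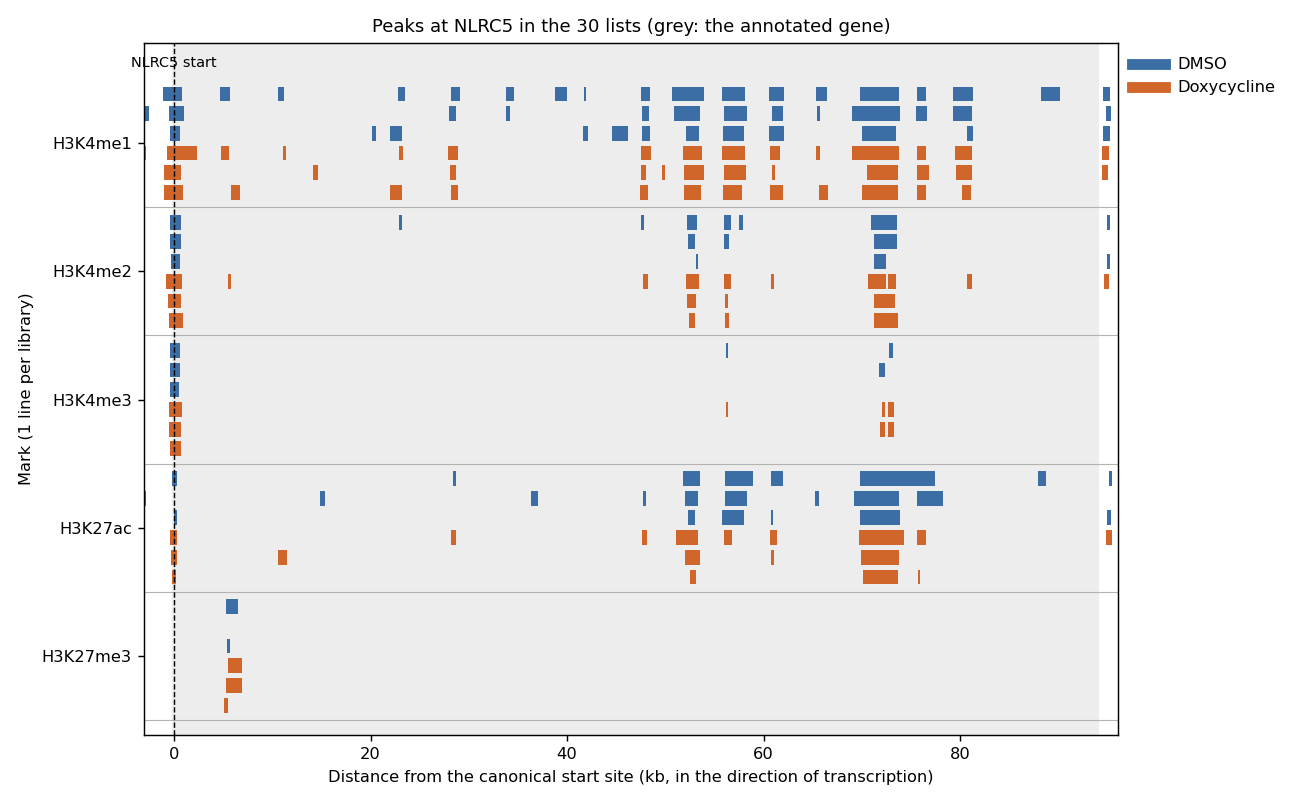
Peaks of the 30 lists at NLRC5, by distance in kb from its canonical start site (dashed line), with 1 line per library, DMSO above doxycycline within each mark, and the annotated gene in grey. H3K4me2 and H3K4me3 sit at the start site in every library, and H3K4me1 and H3K27ac peaks lie about 70 kb downstream in all 6 libraries.

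CIITA, the coactivator of class II genes, lay in a domain of H3K27me3. Peaks covered 2001 bp of the window around its canonical start site in 5 libraries and 1475 bp in doxycycline replicate 3. In the libraries of long fragment length, the widest peak over the locus measured 82.7 kb in DMSO replicate 1, 90.9 kb in doxycycline replicate 1 and 85.3 kb in doxycycline replicate 2. In the libraries of short fragment length the same interval was broken into 22, 38 and 42 peaks of at most 12.4, 6.56 and 4.67 kb (DMSO replicates 2 and 3 and doxycycline replicate 3). The share of the CIITA gene under H3K27me3 followed this split, 66.5% to 68.8% in the former and 40.6% to 52.8% in the latter, so the treatments overlapped. CIITA was the only protein-coding gene whose start site lay inside the widest of these peaks.

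No H3K4me1, H3K4me2, H3K4me3 or H3K27ac peak came within 1 kb of the canonical start site of CIITA in any library. The active marks counted for CIITA came from a window at its last annotated start site, 1749 bp from the start of DEXI, which faces it. There H3K4me3 covered 1324, 1184 and 1235 bp under DMSO and 1288, 1322 and 1020 bp under doxycycline, as part of a peak that reached over the DEXI start. With the paired differences described for NLRC5, H3K4me2 over all CIITA start sites was higher by 715, 577 and 538 bp, a direction shared by all 3 pairs in 16.3% of genes, and the 715 bp came from a peak near the canonical start site in doxycycline replicate 1 alone.

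A single region inside any of the 9 genes was called in 3 of 3 libraries of one treatment and 0 of 3 of the other. It was an H3K4me2 region of CIITA, chr16:10868445-10869298, which lies at -8757 to -7904 bp from the canonical start site and inside the annotated gene. The search covered all 5 marks and both directions. This region was 1 of 23 merged H3K4me2 regions touching the members, against 0.18% of 103040 such regions over the main chromosomes. For DMSO only the share was 0.291%. None of the 28 H3K4me1, 8 H3K4me3, 16 H3K27ac or 8 H3K27me3 regions touching the members was called. Over the main chromosomes, shares in doxycycline only and DMSO only were 0.313% and 1.45% for H3K4me1 and 0.45% and 0.893% for H3K4me3. They were 0.6% and 2.7% for H3K27ac and 0.42% and 0.0386% for H3K27me3. The CIITA region was named after its values had been seen. The peaks in doxycycline replicates 1, 2 and 3 were 854, 332 and 461 bp wide with a fold enrichment of 9.63, 3.59 and 5.19, and stood at the 62.4, 7.44 and 31.9 percentile of their lists. H3K4me1 was called at the same place in DMSO replicate 1 and in all 3 doxycycline libraries.

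**Figure D4:**
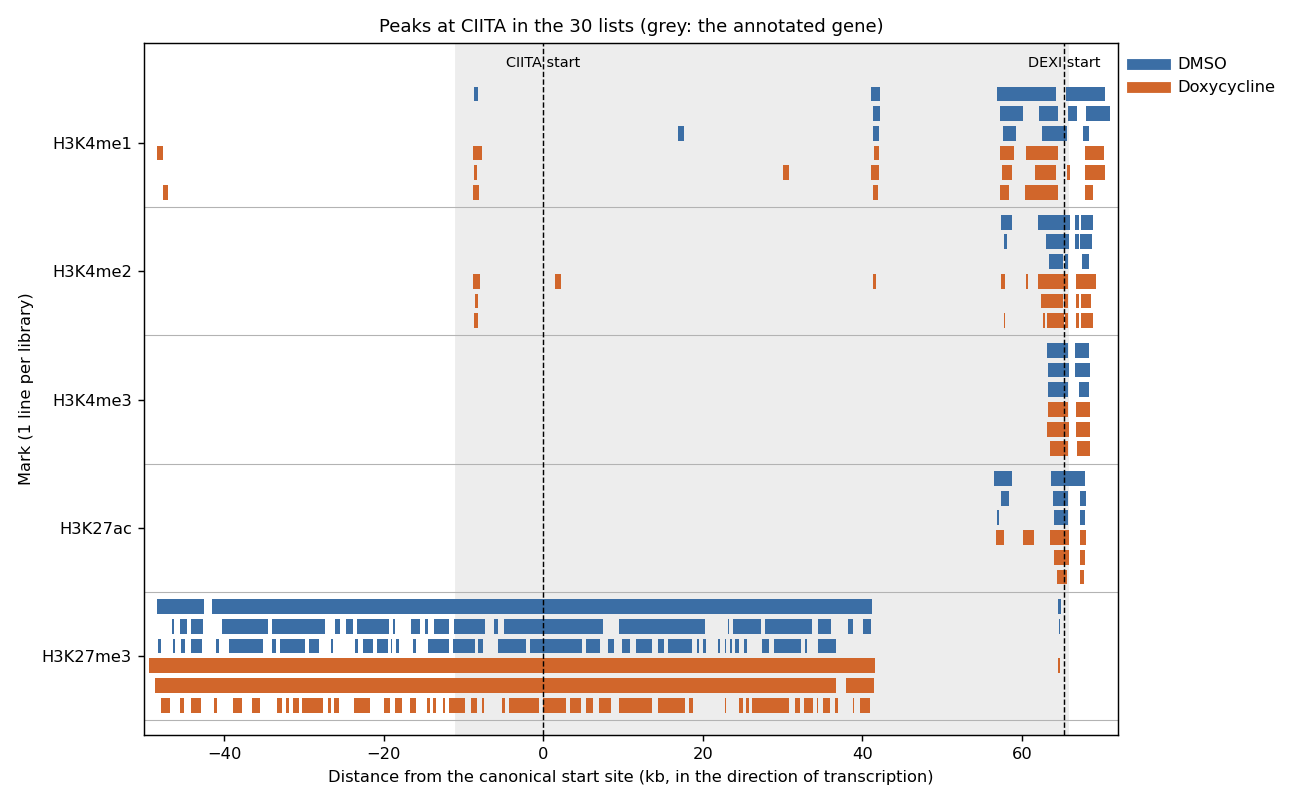
Peaks of the 30 lists at CIITA, by distance in kb from its canonical start site (dashed line), with the DEXI start site as a second dashed line, 1 line per library and the annotated gene in grey. H3K27me3 spans the start site in all 6 libraries, as 1 wide peak in 3 of them and as many pieces in the others, while H3K4me3 and H3K27ac are found at the DEXI end.

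The alternate sequences of chromosome 6 held peaks in all 30 lists, from 40 to 841 per list. GL000251v2 held the most, 2566 over the 30 lists. In the 6 lists of a mark, a peak at any annotated start site was found on average for 13.9% of the 204 genes between 28 and 34 Mb of chromosome 6 for H3K4me1, 31.0% for H3K4me2, 53.7% for H3K4me3, 46.7% for H3K27ac and 8.17% for H3K27me3.

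The shortfall went with the amount of sequence shared. At the canonical start site, the 163 genes of this interval with 90% or more of read-length stretches on an alternate sequence had H3K4me1 peaks in 1.23% to 9.20% of cases, against 56% to 76% for the 25 genes with under 10% shared and 62.2% to 73.7% for all genes outside the interval. For H3K4me3 the shares were 44.8% to 49.7%, 68% to 72% and 69.5% to 71.1%. HLA-E, TAP1, PSMB8 and PSMB9 belong to the fully shared genes, while HLA-B (57.7% shared) and HLA-C (69.1%) are intermediate. Counting a peak on any aligned copy raised H3K4me3 in the 163 genes to 48.5% to 51.5% and H3K4me1 to 3.07% to 15.3%. The part of shared sequence in this shortfall was not tested. A low or absent peak at the 6 MHC members on chromosome 6 cannot be read as absence of the mark.

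**Figure D5:**
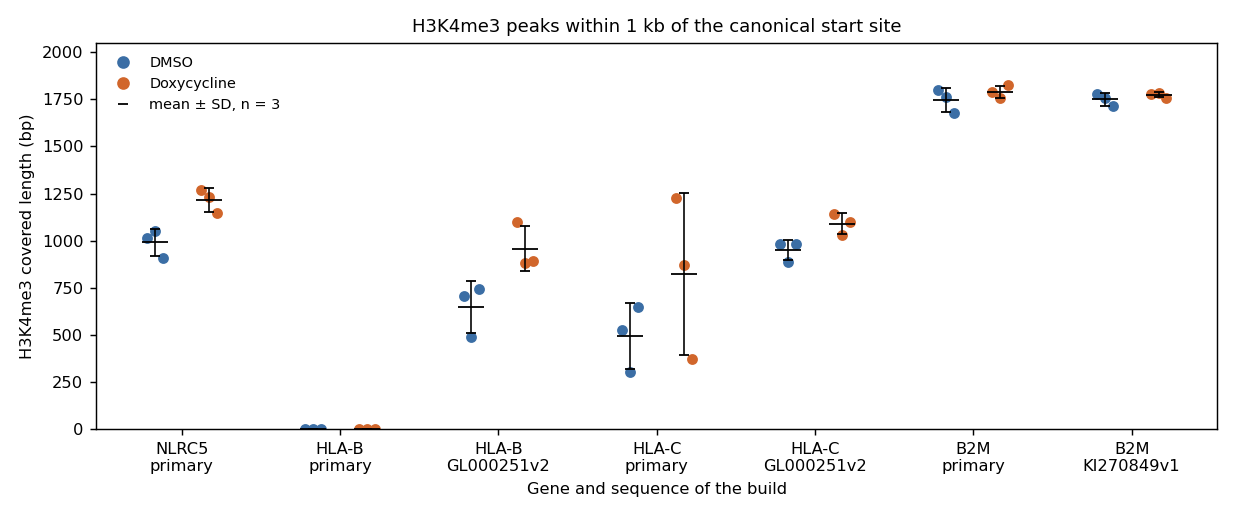
H3K4me3 covered length (bp) within 1 kb of the canonical start site for NLRC5, HLA-B, HLA-C and B2M on the primary chromosomes and on the alternate sequences GL000251v2 and KI270849v1, with 1 point per library and mean ± SD (n = 3). The treatments do not overlap for NLRC5 and for HLA-B and HLA-C on GL000251v2, and they do for B2M and for HLA-C on chromosome 6.

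Across 42 other genes of the pathway, 29 had H3K4me3 at a start site in all 6 libraries and 11 in none. The share was 71.9% over all genes, so 29 of 42 was close to the background. H3K4me3 was found in all 6 libraries at 10 of 10 transcription factors of MHC genes, including RFX5 and IRF1, at 3 of 3 genes of the proteasome group and at 3 of 3 PRC2 genes. Class II genes mostly had no H3K4me3 call on the primary chromosomes, with peaks in all 6 libraries at 2 of 9 and in none at 7. These 7 lie in the MHC interval, and HLA-DRA, HLA-DPA1, HLA-DPB1 and HLA-DMB are 100% shared there. HLA-DRB1, HLA-DQA1 and HLA-DQB1 are 0% to 3.42% shared and had H3K27me3 in some libraries. At HLA-DRB1 it covered 2447, 0 and 28 bp under DMSO and 3425, 3473 and 0 bp under doxycycline. These values followed fragment length, with 2447, 3425 and 3473 bp in the libraries of long fragment length and 0, 28 and 0 bp in those of short. Treatment is not balanced over these kinds of library. Of the 4 class I or class I-like genes HLA-F, HLA-G, MICA and MICB, 4 had no H3K4me3 in any library on chromosome 6, and this group too lies in the shared interval. H3K27me3 was called at their start sites on chromosome 6 in all 6 libraries for 1 (HLA-F), in some for 2 (MICA and MICB) and in none for 1 (HLA-G).

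ERAP2, an aminopeptidase that trims peptides in the endoplasmic reticulum, was the single gene of the 42 with a mark at its start sites in 3 of 3 libraries of one treatment and 0 of 3 of the other. H3K4me3 covered 0 bp in each DMSO library and 762, 642 and 703 bp in the doxycycline libraries, as for 0.0551% of all genes. That share is for this mark and direction alone. ERAP2 was named by this call, which was searched over 5 marks and both directions. Per mark and direction, the call was made for 0% to 0.22% of all genes. The H3K4me3 peaks at ERAP2 had a fold enrichment of 7.90, 7.39 and 4.76 and stood at the 29.9, 25.1 and 13.7 percentile, so they were weak ones. H3K4me2 and H3K4me1 were called there in all 6 libraries and H3K27ac and H3K27me3 in none. H3K4me2 fold enrichment was 4.76, 4.35 and 3.89 under DMSO and 10.04, 5.93 and 8.89 under doxycycline, while its covered length overlapped. The H3K4me2 percentile overlapped as well, at 50.2, 30.2 and 26.0 under DMSO and 61.4, 45.6 and 61.8 under doxycycline. How many of all genes differed in fold enrichment in this way was not computed.

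Other genes of the list had peaks in both treatments with covered lengths that did not overlap. H3K4me1 at ERAP1, a second trimming aminopeptidase, covered 1369, 1915 and 1692 bp under DMSO and 599, 849 and 277 bp under doxycycline. H3K4me1 was also lower at TAPBPL, a peptide editor of class I, making 2 of 42 (5.89% of tested genes), and higher at SUZ12, a PRC2 subunit, as 1 of 42 (3.97%). H3K27ac was higher at PSME2, a proteasome activator subunit, and EZH2, the PRC2 methyltransferase, 2 of 42 (4.92%), and lower at NFYB, an NF-Y subunit, 1 of 42 (6.47%). These shares were close to those over all tested genes. Tested genes had a peak in at least 1 library, whereas 14 of the 42 had no H3K4me1 peak and 13 no H3K27ac peak.

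By the pattern of peaks over the 30 libraries, NLRC5 and CIITA resembled many other genes. In all, 7675 genes had presence values identical to those of NLRC5 in all 30 libraries, and 649 to those of CIITA. In covered promoter length, the closest to NLRC5 were DMTN, CACNA1D and PLB1 (Spearman's rho 0.98 each), and the closest to CIITA were FBXO17, PHOSPHO1 and KCNA4 (0.97 each). These correlations run over 30 libraries of 5 marks that share inputs and treatment, and are given as a description only.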

How the data were processed

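Chromatin immunoprecipitation of 5 histone marks was sequenced in KELLY cells, with 3 libraries per mark and treatment. Of 34 samples, the 30 with a peak list were used, and the 4 input samples entered only through peak calling by the authors. The authors aligned reads with Bowtie2 to hg38 with its alternate sequences, kept well-mapped reads, and called peaks per library with MACS2 2.1.1.20160309 against input. Per the file headers, broad lists (H3K4me1, H3K27ac, H3K27me3) used a q of 0.05 and narrow lists (H3K4me2, H3K4me3) a p of 1e-05. The deposited pileup signal, fold enrichment over the local background and -log10 p-value and q-value of each peak were made by MACS2 after scaling ChIP and input to the smaller depth. The headers gave the same input read total for replicates 1 and 3 within a treatment, so these lists may share an input.

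Covered length was the union of peaks within 1 kb of start sites, and a percentile is the rank of a peak by -log10 q in its own list. Treatments were compared by non-overlap and by exact permutation tests over libraries with Benjamini-Hochberg adjustment across genes with a peak in at least 1 library. Start sites were aligned to alternate sequences with minimap2 2.31-r1302, and read-length stretches were matched letter for letter. Scripts ran in Python 3.11.15 with numpy 2.4.6 and scipy 1.17.1 and were tested on simulated data. Promoter sequences came from RefSeq on GRCh38.p14. The genes named were the 9 members, genes of the pathway and marker lists, and the 3 genes most like NLRC5 and CIITA. The members and lists were chosen with earlier results of these data known. Same-numbered libraries were treated as paired for H3K4me1, H3K4me2 and H3K4me3, where the lowest same-number correlation of deviations was above 0.1 (0.24, 0.18 and 0.32), and the pairing comes from the replicate numbers in the labels. Items withheld from the gene lists and motif search are not reported here.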

Additional observations from a re-analysis of the deposited data

Results flagged for a closer look

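Peaks on alternate sequences of the genome build, which no comparison of treatments at the main chromosomes uses, were present for members with no peak at their canonical start site on chromosome 6. For HLA-B, H3K4me3 was called on an alternate copy but not on chromosome 6 in 6 libraries, and H3K4me1 in 5 libraries. For HLA-C, H3K4me1 was called in this way in 3 libraries. For HLA-E, H3K27me3 was called in this way in 4 libraries, and likewise for PSMB8 in 4 libraries. With 3 libraries per treatment, single libraries were not tested as outliers.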

How the results depend on the processing

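Members with a promoter peak in all 6 libraries numbered 2 for H3K4me1, 3 for H3K4me2, 4 for H3K4me3, 3 for H3K27ac and 1 for H3K27me3. With the canonical start site only, H3K4me1 gave 1 and H3K27ac 1. With a canonical start site on any aligned copy, an alternative chosen after seeing the data, H3K4me1 gave 1, H3K27ac 1 and H3K27me3 2. At a q of 1e-10 or less, H3K4me1 gave 0 and H3K27me3 0. With at least 50% of the window covered, each of the 5 marks gave 0. Leaving out any library changed none of the counts at any start site.

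Members whose treatments did not overlap numbered 0 in each mark. At the canonical start site there was 1 for H3K4me2 and 1 for H3K4me3, in each case NLRC5, and by percentile of the strongest peak 1 for H3K4me1 and 1 for H3K27ac, again NLRC5. With the replicate block, there were 2 for H3K4me2 (NLRC5 and CIITA; 16.3% of genes moved this way), 1 for H3K4me3 (NLRC5; 11.8%) and 1 for H3K27me3 (HLA-B, lower; 0.465%), and none for the other marks. The replicate numbers did not pair the H3K27ac and H3K27me3 libraries, whose lowest same-number correlation of deviations was 0.083 and -0.48, and 2 of 3 numbers correlated best with their own in each, as also for H3K4me2. Within libraries of like fragment length there was 1 for H3K27me3 (HLA-B). Leaving out a library gave 0 to 1 for H3K4me1 (NLRC5 without DMSO replicate 3), 0 to 2 for H3K4me2 (NLRC5 and CIITA without DMSO replicate 1), 0 to 1 for H3K4me3 (HLA-C without doxycycline replicate 3, NLRC5 without DMSO replicate 1), 0 for H3K27ac and 0 to 1 for H3K27me3 (HLA-B without doxycycline replicate 1). The cause was not tested.

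The mean share of MHC genes with a promoter peak moved between 29 and 33 Mb to 2.80% for H3K4me1, 46.5% for H3K4me3 and 38.0% for H3K27ac. At a q of 0.001 or less it was 7.92% for H3K4me1, 43.1% for H3K27ac and 2.61% for H3K27me3. Covered-length differences of single members moved by less than the spread between libraries under 307 alternatives and by more under 5. Peak lists hold only what passed calling, and depth was lower for doxycycline throughout, so small differences in width were not separable from depth.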
